A study of Mus musculus with 8 samples.

Results

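Hbegf and Areg encode membrane-anchored ligands of the epidermal growth factor (EGF) receptor, and the genes described here are these 2 ligands with the other repair growth factors of the panel. The rule took Hbegf and Areg, Ereg and Osm where present, and every gene whose symbol starts with Vegf or Pdgf. It found 9 of the 754 panel genes: Hbegf, Areg, Osm, Vegfa, Vegfc, Pdgfa, Pdgfb and the receptor genes Pdgfra and Pdgfrb. The deposited values hold no row named Ereg. The genes were chosen on their function but with differences between DSHN and DMSO samples in these data already known, so their own differences are a description, and no test is given for them. Transcripts were counted with NanoString nCounter, an assay in which RNA is not amplified and each molecule is read from a bar-coded probe. The cells came from lungs of mice carrying grafts of 4T1, a metastatic mouse mammary tumour line. In the DSHN group (4 samples) Balb/c mice with 4T1 grafts were given DSHN, which activates the nuclear receptor NR0B2, from 10 days after grafting, once per day for 7 days at 10 mg/kg. In the DMSO group (4 samples) mice of the same strain with the same grafts received DMSO as placebo on the same schedule. Each sample pooled the lungs of 3 mice of 1 treatment, from 24 mice in all, and its cells were taken with beads against CD11b and CD11c. The label calls the cells dendritic, but CD11b is also carried by neutrophils, monocytes and macrophages. Of the 9 neutrophil markers on the panel, 8 to 9 lay above background in DSHN samples and 9 in DMSO samples. Of 11 dendritic cell markers, 2 to 10 did so in DSHN and 7 to 9 in DMSO samples, and Xcr1 did so in none of the 8. Of all 754 genes, 293 did so in DSHN sample 1 and 498 to 559 in the other samples. The dendritic cell counts in DMSO samples were near that share of the panel.

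Growth factors of this kind carry repair signals from myeloid cells to the epithelium, vessels and connective tissue around them. Hbegf and Areg are made as membrane-bound precursors, and proteases release the active ligands, which then bind the EGF receptor on epithelial and stromal cells. Oncostatin M, encoded by Osm, is an interleukin 6 family cytokine made by neutrophils, monocytes and macrophages, and it signals through a receptor that contains the gp130 chain. Vegfa and Vegfc encode growth factors of blood and lymphatic vessels, and Pdgfa and Pdgfb encode ligands for the receptors of fibroblasts and mural cells that Pdgfra and Pdgfrb encode.

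The upstream sequence of Areg is shown because it holds a perfect copy of the cAMP response element, a palindrome bound by CREB and ATF family factors, and because genes of those pathways are set beside Areg further on. RefSeq sequences of the GRCm38.p6 build were used, from a table that held 5 of the 9 genes. The 250 bases before the annotated start of Areg lie on the plus strand at chr5:91139349-91139598. Of the Vegfa starts in the table, the one shown for comparison has its 250 bases on the minus strand at chr17:46032378-46032627. Capitals mark matches on either strand to any of 5 motifs, and no matches overlap. The cAMP response element was searched as TGACGTCA. The AP-1 site was searched as TGANTCA. The TATA box was searched as TATAAA. The GC box was searched as GGGCGG. The E-box was searched as CACGTG.
Areg: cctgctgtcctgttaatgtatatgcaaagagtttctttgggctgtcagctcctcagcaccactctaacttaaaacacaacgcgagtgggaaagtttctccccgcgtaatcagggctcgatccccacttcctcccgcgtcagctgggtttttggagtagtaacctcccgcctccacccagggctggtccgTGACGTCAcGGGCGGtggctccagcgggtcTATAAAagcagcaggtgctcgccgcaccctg
Vegfa: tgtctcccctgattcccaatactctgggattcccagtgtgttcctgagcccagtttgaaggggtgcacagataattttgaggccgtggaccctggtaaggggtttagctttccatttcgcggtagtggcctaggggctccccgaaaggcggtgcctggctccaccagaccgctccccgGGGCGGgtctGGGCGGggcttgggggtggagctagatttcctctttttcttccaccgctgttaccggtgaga
In Areg the cAMP response element began 61 bases before the start, followed by a GC box at 52 bases and a TATA box at 31 bases. The Vegfa window held 2 GC boxes and no match to the other motifs. Among 32851 windows of the same length, 1.55% held the cAMP response element, 12.4% the TATA box, 32.7% the GC box, 6.75% the AP-1 site and 6.02% the E-box. These are matches of letters and do not show that a factor was bound.

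A gene counted as above background where its count was over the background limit of that sample, set at 2 SD over the mean negative-control probe, which was 17.9 to 40.1 counts. Counts summed over the 754 genes were 123700 in DSHN 1, 533000 to 617700 in the other DSHN samples and 598100 to 923600 in DMSO samples. DSHN 1 had 293 genes above background, against 498 to 559 in the other samples. DMSO 1 stood apart for a different reason: its spike-in controls were low, and the factor carried by its gene values was 6.83, against 0.604 to 1.16 in the others. As deposited, nearly all of the panel was lower in DSHN samples, and so were the 4 housekeeping genes (Tubb5, Rpl19, Ppia and Oaz1). All values below are therefore log2 values scaled so that the mean of these 4 genes is 10.96 in each sample. The factor of DMSO 1 cancels in this scaling. The 728100 counts and 498 genes above background of DMSO 1 were like those of the other samples. After scaling, though, the panel median was 8.06 in DMSO 1, against 7.43 to 7.73 in the other samples. Tubb5, 1 of the 4 scaling genes, was lowest in DMSO 1 at 8.68. Scaled values of DMSO 1 thus lay higher over the panel as a whole. The differences of the growth factors are given with and without DSHN 1 and DMSO 1. The values without them are descriptions, since leaving out DMSO 1 lowers the DMSO mean of Hbegf, Areg, Osm and Vegfa. DMSO 1 had the highest scaled value for each of these. For Osm that rank depends on the scaling. Osm was 11.84 in DMSO 1 and 11.31 in DMSO 3, over panel medians of 8.06 and 7.43.

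Osm and Vegfa lay above background in all 8 samples. Hbegf, Areg, Pdgfa and Pdgfb did so in 7, all but DSHN 1. Pdgfra did so in 1 DSHN and 1 DMSO sample, and Vegfc and Pdgfrb in 0 of 8. Thus 6 genes were measured in 3 or 4 DSHN and in all DMSO samples, and in DSHN 1 a scaled value under 7.69 cannot be told from background. Of the 9 genes, 7 passed the filter on low values (20 or more as deposited, in 4 samples or more), Pdgfra among them. The factor of DMSO 1 does not cancel in this filter. Pdgfra reached 20 in 4 samples only because its 5 counts in DMSO 1 were deposited as 5.09 (log2).

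**Figure D1:**
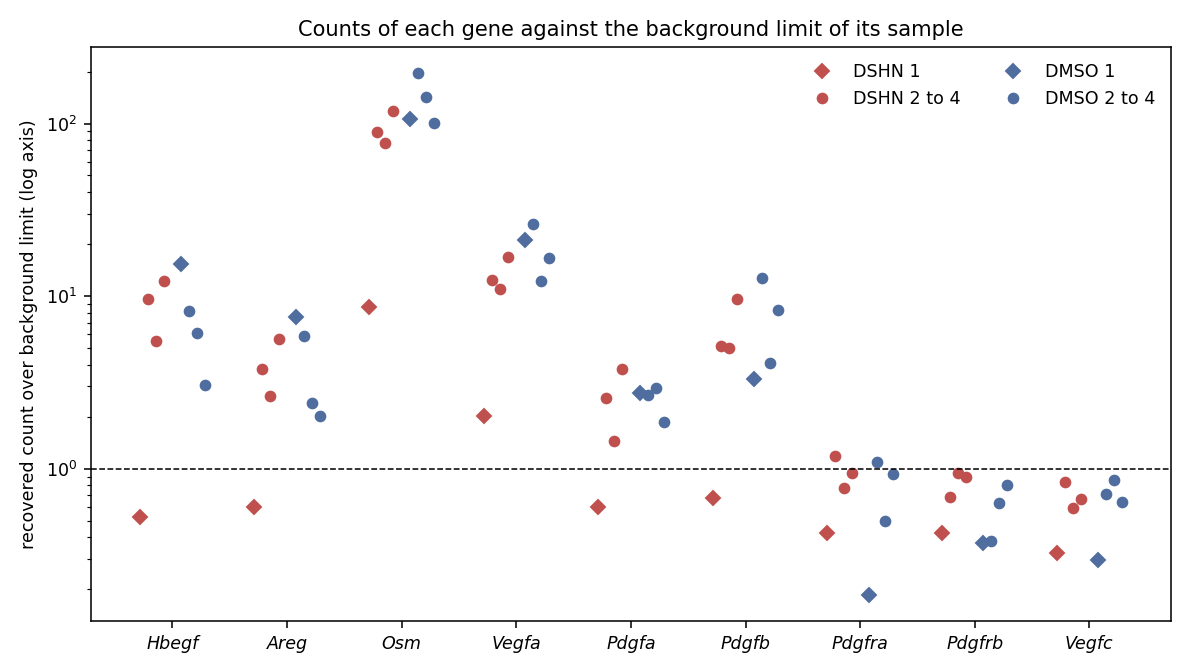
Recovered count of each gene divided by the background limit of the same sample, on a log axis, with DSHN samples (red) left of DMSO samples (blue) for each gene; diamonds are DSHN 1 and DMSO 1, and the dashed line is the limit. Hbegf, Areg, Pdgfa and Pdgfb lay under the limit in DSHN 1, and Vegfc and Pdgfrb in all 8 samples.

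Hbegf was highest in DMSO 1 and did not differ between the groups beyond their spread over all 8 samples, while in the 6 samples other than DSHN 1 and DMSO 1 its values were higher in DSHN. Its scaled log2 values were 6.77, 7.82, 7.20 and 7.90 in DSHN 1 to 4, against 9.06, 6.81, 6.78 and 6.06 in DMSO 1 to 4. These rest on 21, 252, 128 and 218 counts in DSHN samples and on 415, 172, 136 and 72 counts in DMSO samples. The 21 counts of DSHN 1 (exact Poisson 95% interval 13 to 32.1, counting error only) lay under its limit of 40.1. The groups overlapped, since DMSO 1 exceeded every DSHN sample and DSHN 1 lay within the DMSO range. The means were 7.42 ± 0.54 in DSHN and 7.17 ± 1.30 in DMSO samples (SD, n = 4 each). The difference was 0.25 ± 0.58 on the log2 scale (SE, 95% interval -1.06 to 1.55, from the panel-wide limma fit), smaller than the SD of either group. Without DSHN 1 and DMSO 1 the means were 7.64 ± 0.38 in DSHN and 6.55 ± 0.43 in DMSO samples (SD, n = 3 each). The difference was then 1.09, and all 3 DSHN samples lay above all 3 DMSO samples. The gap between DMSO 1 and the next DMSO sample was 0.75 of the DMSO range, which did not exceed Dixon's 95% critical value for 4 samples. Among the 554 genes tested, 39 (7.04%) were separated in that way in those 6 samples, and 8 had a higher difference than Hbegf.

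Areg varied with Hbegf from sample to sample. Its scaled values were 6.96, 6.48, 6.15 and 6.79 in DSHN 1 to 4, against 8.04, 6.32, 5.42 and 5.47 in DMSO 1 to 4, from 24, 100, 62 and 101 counts in DSHN samples and 205, 123, 53 and 48 counts in DMSO samples. DMSO 1 was again the highest of the 8 samples, and DSHN 1 was under background. The means were 6.59 ± 0.35 in DSHN and 6.31 ± 1.22 in DMSO samples (SD, n = 4 each), with a difference of 0.28 ± 0.54 (SE, 95% interval -0.93 to 1.49). Without DSHN 1 and DMSO 1 the means were 6.47 ± 0.32 in DSHN and 5.73 ± 0.51 in DMSO samples (SD, n = 3 each), and the difference was 0.74. The groups still overlapped there, since DMSO 2 exceeded DSHN 3. The gap of DMSO 1 was 0.657 of the DMSO range and again did not exceed Dixon's critical value. Of the 554 genes, 19 had a higher difference in those 6 samples.

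**Figure D2:**
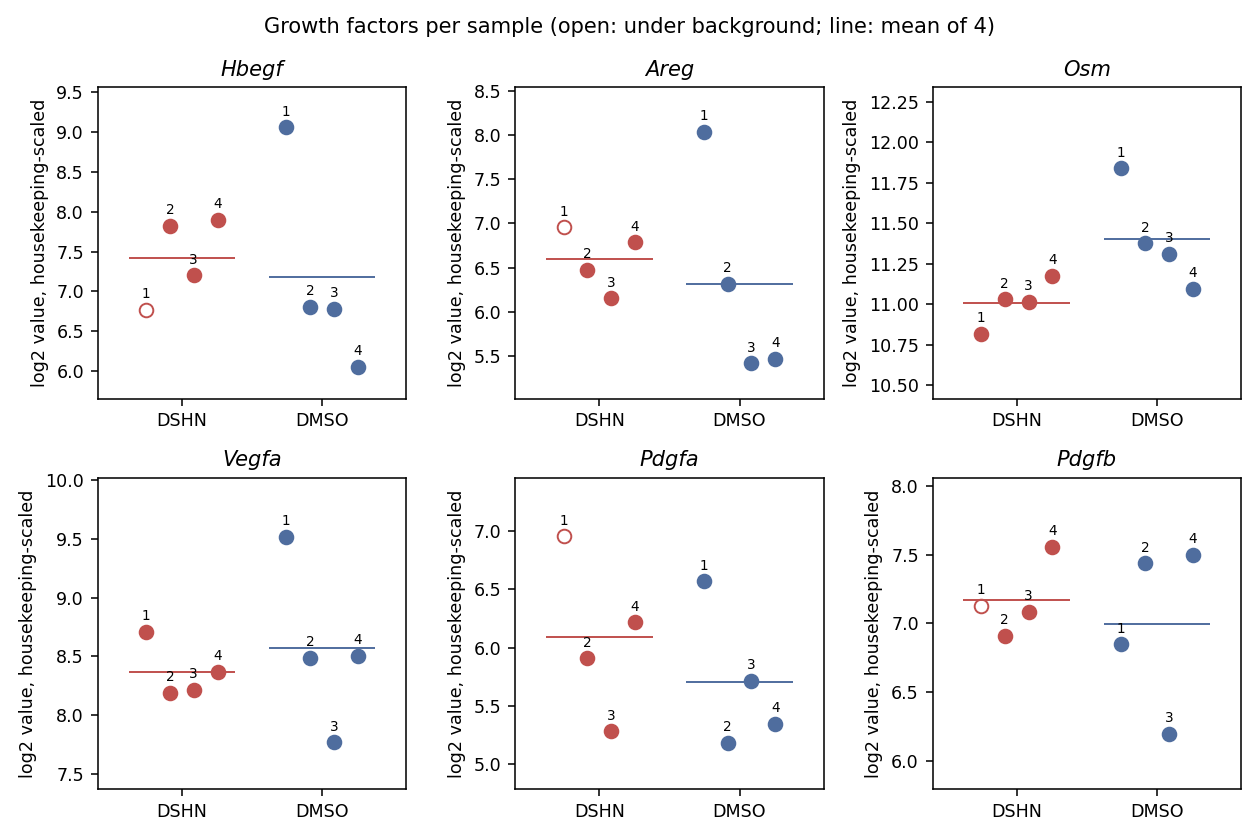
Scaled log2 values of 6 growth factor genes in each sample, with the replicate number above each point, DSHN samples (red) left of DMSO samples (blue), lines at the mean of 4 and open circles for values under background. DMSO 1 was the highest sample for Hbegf, Areg, Osm and Vegfa, and Osm had the narrowest spread.

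The pair varied together across samples. Over the 7 samples in which both were above background, Pearson's r between Hbegf and Areg was 0.94 and Spearman's rho 0.93. Over the 6 samples without DSHN 1 and DMSO 1 the r was 0.85. Over all 8 samples it was 0.83, lower than for any of the most similar genes given below. Over the same 7 samples r was 0.87 for Hbegf with Pdgfa and 0.82 for Areg with Vegfa, but the latter was 0.36 over the 6 samples. These are descriptions of few samples that share their housekeeping scaling. The ratio of Hbegf to Areg, in which the scaling cancels, was 1.34, 1.05 and 1.11 (log2) in DSHN 2 to 4, against 1.02, 0.49, 1.36 and 0.59 in DMSO 1 to 4, so the groups overlapped. Over the 6 samples the r of Hbegf was 0.73 with Pdgfa, 0.00 with Pdgfb, -0.14 with Vegfa and -0.27 with Osm, while Pdgfb and Vegfa had an r of 0.97, above that of Hbegf and Areg.

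**Figure D3:**
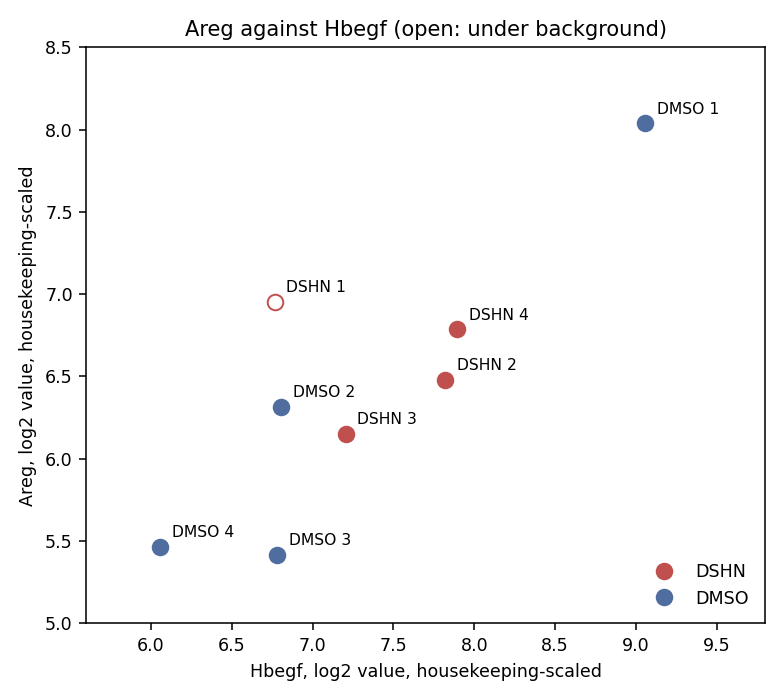
Areg against Hbegf, both as scaled log2 values, in DSHN samples (red) and DMSO samples (blue), with the value under background drawn open. DMSO 1 stands at the upper right with 9.06 for Hbegf and 8.04 for Areg, and DSHN 2 to 4 have higher Hbegf than DMSO 2 to 4.

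Genes whose pattern was most like that of Hbegf were sought in the set of 291 that exceeded background in every sample. By Pearson's r over the 8 samples these were Il1rn, the interleukin 1 receptor antagonist (0.92), the chemokine Ccl4 (0.92), Socs3, a feedback inhibitor of cytokine signalling (0.92), and the cytokine Il6 (0.92), and over the 6 samples without DSHN 1 and DMSO 1 their r was 0.80 to 0.91. Their Spearman rho over 8 samples was 0.83 to 0.90. The genes most like Areg were the gelatinase Mmp9 (0.97), the respiratory chain subunit Ndufa7 (0.96), Acod1, the enzyme that makes itaconate (0.93), and Traf1, an adaptor of TNF receptors (0.92), with r of 0.90 to 0.96 over the 6 samples and a rho of 0.71 to 1 over 8. The likeness was measured with DMSO 1, the highest sample for Hbegf and Areg, and with DSHN 1, in which both were under background. None passed the threshold between DSHN and DMSO samples in limma (adjusted p from 0.925 to 0.998).

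Osm pointed the other way and was far above background, with 349 counts in DSHN 1, 1799 to 2336 in DSHN 2 to 4 and 2369 to 4095 in DMSO samples. Its scaled values were 10.82, 11.03, 11.01 and 11.18 in DSHN 1 to 4, against 11.84, 11.38, 11.31 and 11.10 in DMSO 1 to 4. Only DSHN 4 and DMSO 4 kept the groups from being separate. The means were 11.01 ± 0.15 in DSHN and 11.40 ± 0.31 in DMSO samples (SD, n = 4 each), with a difference of -0.40 ± 0.21 (SE, 95% interval -0.87 to 0.08), and 46 of the 554 genes had a lower difference. It was -0.19 without DSHN 1 and DMSO 1 and -0.25 without DMSO 1 alone. It was -0.22 with Tubb5 left out of the scaling.

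Ratios within a sample are not changed by the scaling. Osm was taken as the denominator after its values were seen, and with DSHN 1 and DMSO 1 left out the ratios of both EGF ligands to it were separate between the groups. Of the other 553 tested genes, 110 (19.9%) had a ratio to Osm that was higher in all 3 DSHN than in all 3 DMSO samples, so the separation is not particular to the ligands. The log2 ratio of Hbegf to Osm was -3.21, -3.81 and -3.28 in DSHN 2 to 4, against -4.57, -4.53 and -5.04 in DMSO 2 to 4, a mean difference of 1.28. The ratio of Areg to Osm was -4.55, -4.86 and -4.39 in DSHN 2 to 4, against -5.06, -5.89 and -5.63 in DMSO 2 to 4, a mean difference of 0.93. In DMSO 1 these ratios were -2.78 and -3.80, the highest of the 8 samples. Over all 8 samples the differences were 0.64 for Hbegf and 0.68 for Areg. With Vegfa as the denominator, also chosen after seeing the data, the ratio of Hbegf was -0.37, -1.01 and -0.47 in DSHN 2 to 4, against -1.68, -0.99 and -2.45 in DMSO 2 to 4, and the groups overlapped. The ratio of Areg to Vegfa was -1.71, -2.06 and -1.58 in DSHN 2 to 4, against -2.17, -2.35 and -3.04 in DMSO 2 to 4, without overlap, as for 30 of 553 genes (5.42%). Such ratios show unequal change, not which gene changed.

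**Figure D4:**
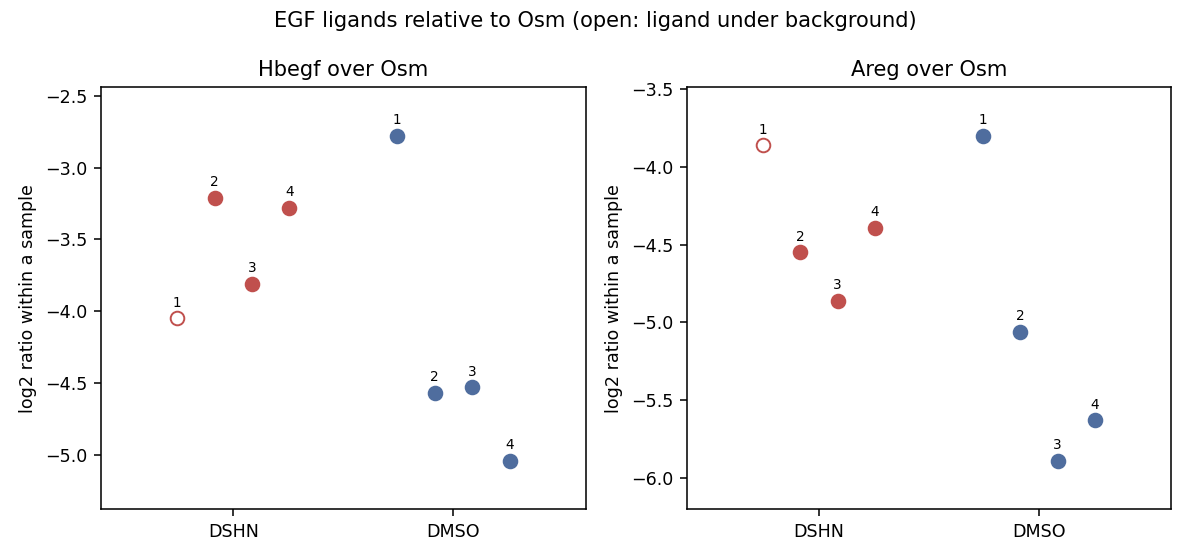
Log2 ratio of Hbegf to Osm (left) and of Areg to Osm (right) within each sample, numbered by replicate, with DSHN samples (red) left of DMSO samples (blue) and open circles where the ligand was under background. DMSO 1 was highest in each, and DSHN 2 to 4 lay above DMSO 2 to 4.

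Vegfa, which hypoxia and inflammatory signals induce in macrophages, differed little. It had scaled values of 8.71, 8.19, 8.21 and 8.37 in DSHN 1 to 4, against 9.52, 8.49, 7.77 and 8.51 in DMSO 1 to 4. The DSHN samples all lay within the DMSO range. The means were 8.37 ± 0.24 in DSHN and 8.57 ± 0.72 in DMSO samples (SD, n = 4 each), a difference of -0.20 ± 0.34 (SE, 95% interval -0.97 to 0.56), and 0.00 without DSHN 1 and DMSO 1. Vegfc had 12 to 22 counts in DSHN and 8 to 19 in DMSO samples, all under background, so no difference is given.

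The PDGF ligand genes also had overlapping groups. Pdgfa had scaled values of 6.96, 5.91, 5.28 and 6.22 in DSHN 1 to 4, with DSHN 1 under background, against 6.57, 5.19, 5.72 and 5.35 in DMSO 1 to 4. Its difference was 0.39 ± 0.43 (SE, 95% interval -0.58 to 1.35), the same to 2 decimals without DSHN 1 and DMSO 1, 0.10 without DSHN 1 alone, 0.67 without DMSO 1 alone and -0.02 with background subtracted. Pdgfb, which macrophages, platelets and endothelium make, had 7.13, 6.91, 7.08 and 7.56 in DSHN 1 to 4, with DSHN 1 under background, against 6.85, 7.44, 6.20 and 7.50 in DMSO 1 to 4. DMSO 1 was not the highest sample for Pdgfb. Its difference was 0.17 ± 0.32 (SE, 95% interval -0.54 to 0.89), and 0.14 without DSHN 1 and DMSO 1. The sign turned without DMSO 3 (-0.09), with sample weights (-0.11), with background subtracted (-0.14) and with the values as deposited (-1.73).

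The receptor genes were near or under background. Pdgfra had 17 to 31 counts in DSHN and 5 to 23 in DMSO samples, and it was above background in DSHN 2 and DMSO 2 alone. Its fitted difference of 1.44 therefore has no known size: it was 0.66 without DSHN 1 and DMSO 1. Pdgfrb had 16 to 22 counts in DSHN and 8 to 19 in DMSO samples, all under background.

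**Figure D5:**
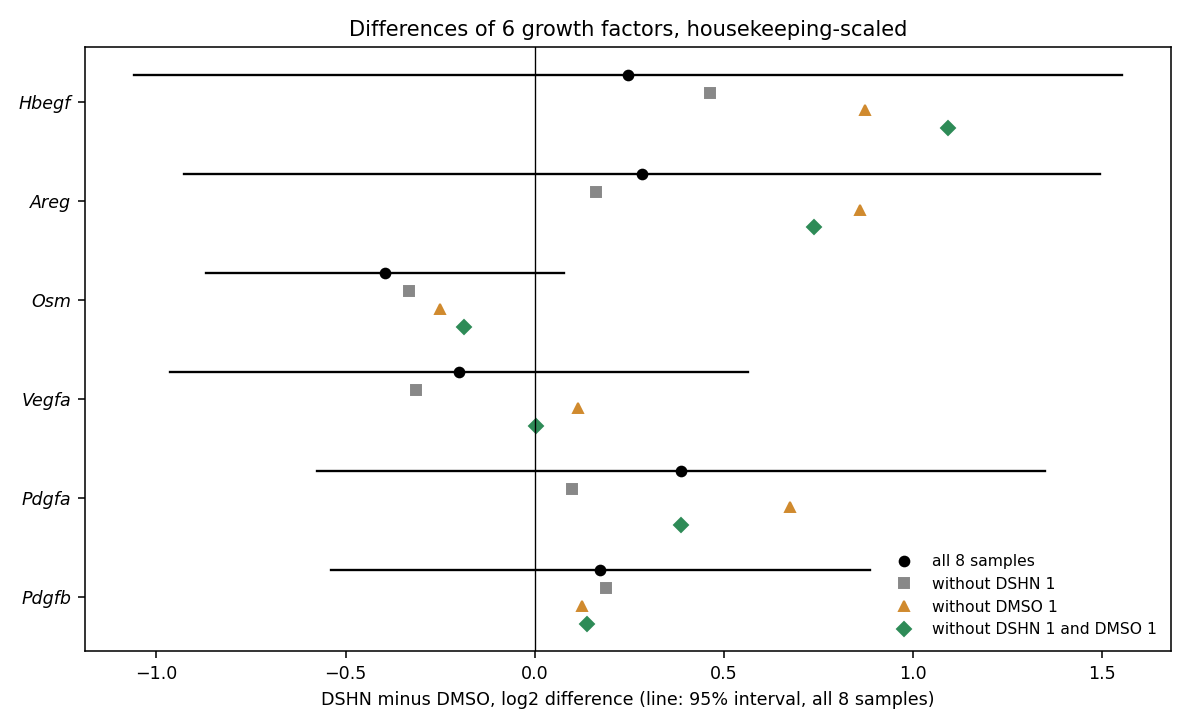
Log2 difference, DSHN minus DMSO, of 6 growth factor genes on the housekeeping scale, for all 8 samples (with limma 95% intervals) and, as points alone, without DSHN 1, DMSO 1 or both. Without DMSO 1 the differences were 0.87 for Hbegf and 0.86 for Areg, against 0.25 and 0.28 with all 8 samples.

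Over the panel, 0 of 554 genes (0%) passed in limma with Benjamini-Hochberg adjustment at 0.05, with a lowest adjusted p of 0.925. Without adjustment 20 genes (3.61%) had p under 0.05. The exact permutation test per gene gave 18 genes before adjustment and 0 after. It has 70 assignments, so its smallest p is coarse and could pass adjustment only if a large part of the panel shared it. Its 0 therefore adds nothing to that of limma. The median difference was 0.03, with 296 genes higher and 258 lower in DSHN. That split was 1 and 553 as deposited, 164 and 390 with background subtracted and 400 and 154 when the scaling did without Tubb5. Without DSHN 1 and DMSO 1, 0 genes passed (lowest adjusted p 0.277) and 28 had an unadjusted p under 0.05.

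Partner genes were taken from 7 lists of pathways around these growth factors, and 0 of their tested members passed in either direction. Of the list of EGF receptors and other ligands, the panel held Egf and Tgfa, both above background in 0 of 8 samples. The panel held 8 of the 21 listed genes of ligand shedding, and Adam10 and Adam17 were not among them. These 8 include metalloproteinases and the metalloproteinase inhibitor Timp3 (0.32). Of the 8, 6 had a higher and 2 a lower mean in DSHN, and the median was 0.10. The protease Adam8 differed by 0.13 ± 0.28 (SE) and the neutrophil collagenase Mmp8 by -0.37 ± 0.46 (SE). Of 5 oncostatin M and interleukin 6 family genes, 1 was higher and 4 were lower, with a median of -0.09, which was 0.13 without DSHN 1 and DMSO 1. Stat3, a transcription factor downstream of gp130, differed by -0.31 ± 0.22 (SE), and Il6 by 0.24 ± 0.35 (SE), or 0.60 without DSHN 1 and DMSO 1.

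Immediate early and MAPK feedback genes, which EGF receptor and stress signals induce, had 5 of 14 higher and 9 lower, with a median of -0.11. Atf3, a stress-induced factor of the family that binds the cAMP response element, differed by -0.60 ± 0.21 (SE), with 10.63 to 11.06 in DSHN and 11.17 to 11.85 in DMSO samples, and did not pass (adjusted p = 0.925 in limma). Dusp1 of the same list differed by -0.62 ± 0.27 (SE), with 11.95 to 12.35 in DSHN and 12.44 to 13.51 in DMSO samples. Klf4 differed by -0.53 ± 0.27 (SE), with overlap. Without DSHN 1 and DMSO 1 these 2 were at -0.30 and -0.21. Atf3 and Dusp1 are among 4 of 554 genes (0.722%) with all DSHN below all DMSO samples. Prostaglandin and cAMP genes had 2 of 6 higher, 4 lower and a median of -0.05. Without DSHN 1 and DMSO 1, 6 of 6 were higher and the median was 0.19, where the tested panel had 330 higher, 224 lower and a median of 0.06. Crem, a factor that binds the cAMP response element, differed by 0.19 ± 0.31 (SE) and Ptgs2, the inducible prostaglandin synthase, by -0.28 ± 0.49 (SE). Other repair factors of myeloid cells had 6 of 12 higher and 6 lower, with a median of -0.01. Retnla, a marker of alternatively activated macrophages, differed by 0.92 ± 0.61 (SE), with 7.20 to 9.49 in DSHN and 6.17 to 8.49 in DMSO samples, and Tgfb1 by -0.19 ± 0.21 (SE). The 2 tested genes of VEGF receptors and angiogenesis were Flt1 and Hif1a. Flt1, which encodes a VEGF receptor, differed by 0.37 ± 0.35 (SE). Hif1a, which encodes a hypoxia-response factor known to induce Vegfa, differed by -0.29 ± 0.38 (SE). Without DSHN 1 and DMSO 1 several of these values turned or moved, to -0.03 for Adam8, -0.07 for Mmp8 and for Stat3, 0.30 for Ptgs2, 0.13 for Hif1a, 0.02 for Flt1 and 1.48 for Retnla. Atf3 was then at -0.57, Crem at 0.12 and Tgfb1 at -0.06, and the medians were 0.05 for ligand shedding, -0.07 for immediate early genes and -0.06 for other repair factors. Leaving Tubb5 out of the scaling adds 0.17 to every difference, which turns the medians of -0.09, -0.11, -0.05 and -0.01 positive.

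Cell markers differed between samples, and DMSO 1, in which Hbegf and Areg were highest, stood apart in several. Summed over the list and given as log2, neutrophil markers were 16.09 to 17.26 in DSHN samples. They were 17.78 in DMSO 1 and 16.35 to 16.74 in the other DMSO samples. The panel median was also higher in DMSO 1 (8.06) than in DSHN 4 (7.64), the DSHN sample with 17.26. Most of the gap between these 2 samples in neutrophil markers was thus shared with the panel. The platelet markers Pf4 and Selp summed to 6.37 to 7.05 in DSHN 2 to 4, 10.04 in DMSO 1 and 5.95 to 6.43 in the other DMSO samples. The sum of 8.10 in DSHN 1 rests on values under background. Lung macrophage markers were 13.13 in DSHN 1, 14.42 to 15.08 in DSHN 2 to 4, 13.92 in DMSO 1 and 14.15 to 14.90 in the other DMSO samples. Itgam, which encodes CD11b, was 8.14 to 9.24 in DSHN samples, 10.96 in DMSO 1 and at most 8.49 in the other DMSO samples, and Itgax, which encodes CD11c, was lowest in DMSO 1 at 7.53. The fibroblast and mural markers Col1a2, Col3a1 and Fn1 summed to 10.06 to 10.90 in DSHN samples, 12.25 in DMSO 1 and 9.79 to 10.66 in the other DMSO samples. Only 1 of these 3 was above background in all 8 samples, and Fn1 is also on the list of other repair factors of myeloid cells. Pdgfra and Pdgfrb, markers of the same cells, were left out of the sum as members. In DMSO 1 they had 5 and 10 counts, both under background. In the 6 samples without DSHN 1 and DMSO 1, 3 of the 14 marker lists had no overlap, all higher in DSHN. Of the 554 tested genes, 39 (7.04%), Hbegf among them, were separated in that direction. Cdh1, the 1 epithelial and 4T1 marker on the panel, was 7.16 to 7.41 in DSHN and 6.88 to 7.11 in DMSO samples there. Cd247, the 1 T cell marker, was 5.22 to 5.78 in DSHN and 4.51 to 4.91 in DMSO samples. The 5 type 2 lymphoid markers summed to 6.94 to 7.47 in DSHN and 6.24 to 6.69 in DMSO samples. Of these 5, 0 were above background in all 8 samples and Il5 was so in none. Each DMSO sample had 1 to 2 of them above background and each DSHN sample 0 to 3, so the sum rests partly on values under background. Of the mast cell and basophil markers, Cpa3, Ms4a2, Kit and Tpsb2 were above background in 0 of 8 samples. In pooled cells, fewer cells of a type and less RNA per cell cannot be told apart, and the part of these markers in the levels of Hbegf and Areg was not tested.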

How the data were processed

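The authors deposited log2 values with 2 decimals for 768 probes: 754 genes, 6 positive and 8 negative controls. The sources used here do not name the software. From the values, control rows are whole counts, and gene values under 40 counts are whole numbers times a factor per sample, to within 0.005 (log2). That factor is close to what 5 positive controls give. Dividing by it gave recovered counts, exact only for low values.

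The deposited log2 values were scaled per sample to the mean of Oaz1, Ppia, Rpl19 and Tubb5 and fitted with limma 3.58.1 (R 4.3.3, variance trend, no covariates), DSHN minus DMSO, on the 554 genes that reached 20 in 4 samples or more. P-values were Benjamini-Hochberg adjusted over these. The code was tested on simulated data. Members, lists and settings were chosen with earlier results of these data known. Named genes were all members, up to 3 genes per list with the smallest unadjusted p among those above background in all 8 samples, and the 4 most correlated with Hbegf and with Areg. Flt1, under background in DSHN 1, was named after its values were seen. Each sample is a pool from separate mice and counted as 1 replicate. The number of samples limits the precision. Other scalings, filters, models and samples left out are given in the closing section.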

Additional observations from a re-analysis of the deposited data

How the results depend on the processing

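The count of 0 genes passing was the same under 23 of 24 other settings. Among the 23 is the exact permutation test, which with 70 assignments could hardly have passed a gene. With sample weights 1 gene, Csf2, passed. Csf2 belongs to none of the lists, whose count stayed 0. Differences of Hbegf and Areg moved by more than 1 SD between replicates with the values as deposited, to -1.66 and -1.62, since the whole panel shifted by a median of -1.87. With background subtracted they were -0.24 and -0.06. Leaving out 1 sample gave -0.13 (without DMSO 4) to 0.87 (without DMSO 1) for Hbegf, and -0.01 (without DMSO 3) to 0.86 (without DMSO 1) for Areg. Other scalings gave 0.06 to 0.42 for Hbegf and 0.09 to 0.46 for Areg, with sample weights 0.73 and 0.29. Hbegf and Areg had no value among genes above background in all samples. Genes at an unadjusted p under 0.05 numbered 20, against 196 as deposited, 40 without a filter, 43 with sample weights, 12 with background subtracted, 12 without DSHN 1, 11 without DSHN 3 and 4 among genes above background in all samples. A replicate block left the differences as they were, with 0 genes passing and 11 at an unadjusted p under 0.05. Same-numbered samples did not deviate together (r of -0.18, 0.14, 0.02 and -0.29 for pairs 1 to 4). Differently numbered samples had r of -0.33 to 0.32, so these values show no pairing but cannot exclude that samples were handled in pairs. Depth limits DSHN 1 most.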
